A study of Mus musculus with 2 samples.

Results

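Oxidative phosphorylation was described through the nuclear-encoded genes of its enzyme complexes. They were taken by name alone: every gene whose symbol begins with Ndufa, Ndufb, Ndufc, Ndufs, Ndufv, Uqcr, Cox4 to Cox8, Atp5, Sdha, Sdhb, Sdhc or Sdhd. This gave 96 of the 27998 genes counted. The set holds 36 subunit genes and 7 assembly factors of complex I, 4 subunit genes and 4 assembly factors of complex II, 8 subunit genes of complex III, 19 of complex IV and 15 of complex V. The other 3 are Cox7a2l, which helps respiratory complexes associate, and Atp5s and Atp5sl, which are not counted as core parts of complex V here. Of the 19 complex IV genes, 8 are isoforms with restricted expression. Only Cox8c had no UMI in any cell kept, and 80 members reached 20 CPM (UMI counts scaled to a common total per class and library) in tumour-like cells of either library.

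Complexes I and II pass electrons from NADH and succinate to ubiquinone, complex III passes them to cytochrome c, and complex IV passes them to oxygen. The proton gradient that complexes I, III and IV build across the inner mitochondrial membrane drives ATP synthesis by complex V. Complex II is encoded wholly in the nucleus, while the others combine nuclear subunits with subunits encoded in mitochondrial DNA. In the brain, the choroid plexus, which secretes cerebrospinal fluid, is known for epithelial cells rich in mitochondria, and microglia and tumour cells can shift between respiration and glycolysis.

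Single-cell transcripts were counted in 2 libraries, 1 per group, of Kunming mice carrying the mouse glioma line G422 in the brain. Untreated mice, sampled on day 7 after inoculation, gave the control library. The LTS (long-term survivor) library came from mice that lived over 100 days after a combined therapy, whose agents the labels do not name, then received the same cells on the opposite side and again lived over 100 days; its tissue is also labelled day 7, and which inoculation that day counts from is not stated. Digested tissue was enriched for immune cells at a Percoll interphase, so shares of cell types reflect that step, and neither the number of animals pooled nor their age is given. With 1 library per group no difference between groups has a replicate check. Intervals are exact 95% intervals that cover counting error only, treating each UMI as independent, and no p-value is given.

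The libraries held 165796852 (control) and 149413534 (LTS) UMIs, of which 8310 and 4835 barcodes with at least 1000 UMIs, at least 300 genes and at most 15% mitochondrially encoded UMIs were kept as cells. Their median depth was 14889.5 and 18779 UMIs, and 13 barcodes occurred in both libraries. Clusters, made without the members, were named from marker lists. The tumour-like class (5265 and 2592 cells) was the pool of non-immune clusters without a host name. All 12 genes of a tumour list, chosen on earlier results of these same data, were at least 2-fold higher there than in host cells, and the leukocyte gene Ptprc was at 2.10 against 299.5 CPM. In the clusters that carry those names, 9 of 9 T cell, 9 of 9 endothelial, 8 of 8 choroid plexus, 7 of 7 B cell and 8 of 11 monocyte markers were found. Of the microglia markers, 11 of 11 were found in clusters 0 and 1 and 10 of 11 in cluster 7.

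Most cell classes gave the members a like share of their transcripts, and choroid plexus-like cells stood far above them. In tumour-like cells the members made up 2.12% of UMIs in the control library (interval 2.12 to 2.13) and 2.11% in the LTS library (2.11 to 2.12). Microglia-like cells gave 2.15% and 1.99%, monocyte-like cells 1.99% and 1.88%, T cell-like cells 2.13% and 1.93%, and endothelial-like cells 2.12% and 2.05%. B cell-like cells were lower, at 1.80% over 24 control cells and 1.53% over 74 LTS cells. Choroid plexus-like cells were at 3.42% (3.28 to 3.56) over 12 control cells and 6.05% (5.98 to 6.12) over 68 LTS cells.

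**Figure D1:**
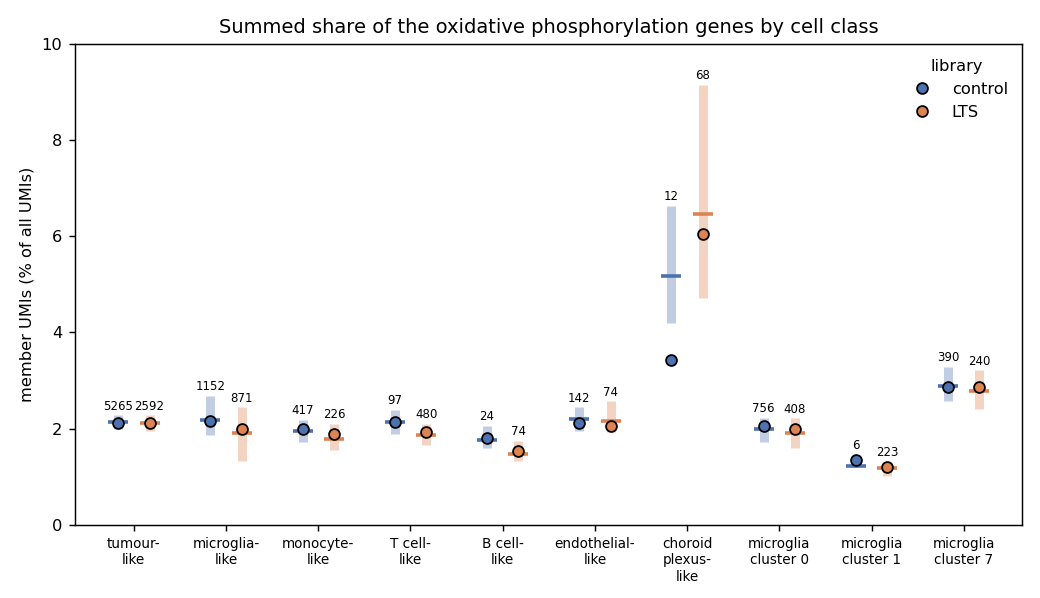
Summed share of the members (% of all UMIs, dots) in each cell class and in 3 microglia clusters, for the control and the LTS library; bars span the interquartile range over cells, dashes mark the median cell and numbers give the cells. Choroid plexus-like cells lie at 3.42% and 6.05%, while the other classes lie between 1.53% and 2.15%.

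Within the complexes, the same few subunits led in tumour-like cells. Values for single genes are CPM of 3′ UMI counts, which count transcripts and are not scaled by length. In complex I, Ndufa2 had the highest mean over both libraries (435 CPM) and Ndufv3 the lowest among members over 50 CPM (58.0 CPM). Succinate dehydrogenase subunits, which also serve the citric acid cycle, lay close together: Sdhd at 84.5 and 104 CPM, Sdha at 90.1 and 82.3, Sdhb at 83.5 and 78.5, and Sdhc at 70.9 and 71.2 (control and LTS). Complex III ran from Uqcrc2, a core protein (100 CPM), to Uqcrq, a small subunit (645 CPM). Complex IV ran from Cox6a1 (156 CPM) to Cox4i1 (1108 CPM), and complex V from Atp5k (159 CPM) to Atp5g2 (855 CPM), which encodes the rotor ring subunit c. Summed over subunits in control tumour-like cells, complex V held 0.696% of UMIs, complex I 0.573%, complex IV 0.513%, complex III 0.254% and complex II 0.0329%.

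In choroid plexus-like cells of the LTS library, nearly every structural subunit was higher than in tumour-like cells. A member is called higher or lower where the classes differ at least 1.5-fold and the counting interval lies on the same side of 1. Of the 88 members tested, 74 were higher and 0 lower, beside 17.1% of all genes higher and 38.1% lower. The median log2 ratio was 1.37 over the members and -0.48 over all genes. By role, 35 of 36 complex I genes were higher, 3 of 4 complex II genes and 7 of 8 complex III genes. So were 14 of 14 complex IV genes and 11 of 15 complex V genes, but 4 of 10 assembly factors. Tested genes needed 20 CPM in either class. The restricted forms Cox8b, Cox6b2 and Cox7a1 passed only through choroid plexus-like cells. So did the assembly factors Ndufaf3, Ndufaf5, Ndufaf6, Ndufaf7 and Sdhaf3. Restricted forms low in both classes were left out, so these counts of complex IV and assembly factors were partly set by the minimum. Complex I subunits held 1.72% of UMIs there, complex IV 1.76%, complex V 1.71%, complex III 0.716% and complex II 0.0622%.

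Among the ubiquitous subunits, Ndufv3, a small subunit of the NADH-oxidising module, stood at 605 CPM in LTS choroid plexus-like cells and at 55.5 CPM in LTS tumour-like cells, a 10.9-fold difference (interval 9.58 to 12.4). Ndufa11, a membrane arm subunit, stood at 1054 against 145 CPM (7.30-fold, 6.63 to 8.02). Atp5g1, which like Atp5g2 encodes subunit c, stood at 2912 against 579 CPM (5.03-fold, 4.75 to 5.32). Ndufa4, now known as a complex IV subunit, stood at 2052 against 371 CPM (5.53-fold, 5.16 to 5.91). In the 12 control cells of the class the same genes were at 253 (Ndufv3), 596 (Ndufa11), 1223 (Atp5g1) and 760 CPM (Ndufa4), each above the other 6 classes named here in that library.

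A minority of members did not share the difference. The subunit c genes parted: Atp5g2 was at 820 CPM against 876 in tumour-like cells, while Atp5g3 was at 804 against 304. These 3 genes encode the same mature protein, and how reads that match several of them were counted was not stated. Cox7a2l was at 305 against 286 CPM, the complex I subunit Ndufa10 at 139 against 132, and Atp5a1, the alpha subunit of the catalytic head, at 742 against 654. The assembly factor Sdhaf2, which attaches the flavin of Sdha, was at 26.0 against 45.2 CPM on 11 UMIs.

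**Figure D2:**
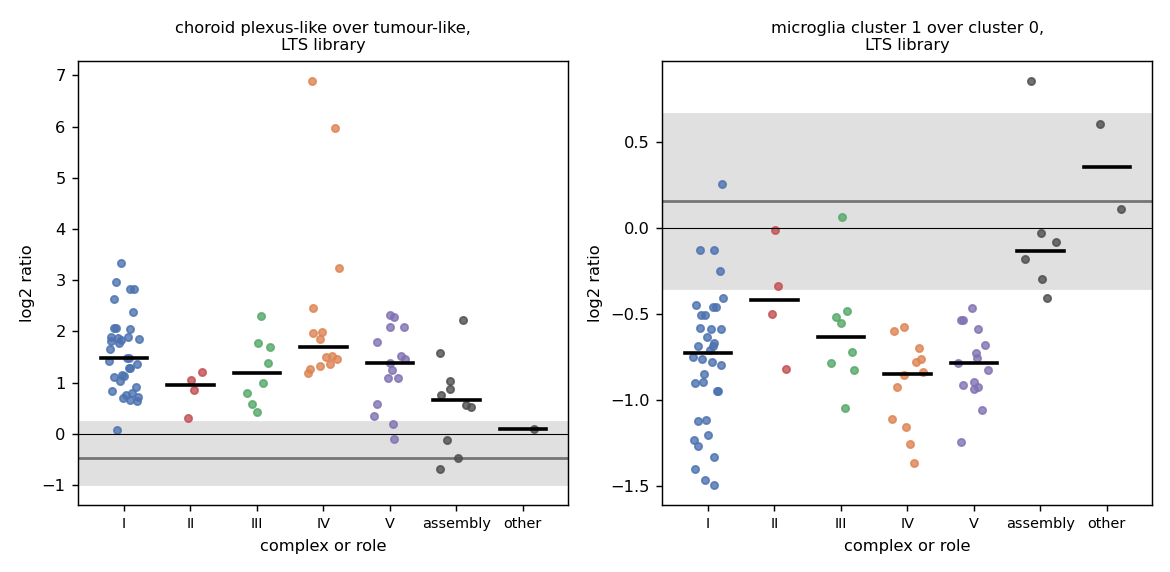
Log2 ratio of each member (dots, by complex, with assembly factors and other genes apart) in the LTS library, for choroid plexus-like over tumour-like cells (left) and microglia cluster 1 over cluster 0 (right); black bars are group medians, the grey line and band the median and interquartile range of all genes. On the left the members' median is 1.37 where that of all genes is -0.48, and on the right -0.72 where that of all genes is 0.16.

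The difference was of like size against each other class of the LTS library. The summed share of choroid plexus-like cells was 2.86-fold that of tumour-like cells (2.82 to 2.90), 2.95-fold that of endothelial-like, 3.04-fold that of microglia-like, 3.13-fold that of T cell-like, 3.21-fold that of monocyte-like and 3.97-fold that of B cell-like cells. Over both libraries pooled and against the mean of the other classes, 77 of 90 members were at least 1.5-fold higher and 2 lower, beside 18.6% and 32.4% of all genes. Related gene lists moved less against tumour-like cells: the median log2 ratio was 0.28 for the 13 mitochondrially encoded genes (3 higher), 0.38 for citric acid cycle genes (9 of 22 higher), 0.29 for glycolysis genes (6 of 16), -0.01 for mitochondrial ribosome genes (17 of 74), -0.29 for mitochondrial import genes (3 of 19) and -0.54 for regulators of mitochondrial biogenesis (2 of 11).

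The spread over cells was wide. Single LTS choroid plexus-like cells ranged from 2.13% to 13.7% with a median of 6.47%, and 67 of 68 lay above the upper quartile of tumour-like cells. Control cells ranged from 1.79% to 9.09% with a median of 5.17%, and 11 of 12 lay above that quartile. In the control library 1 cell held 44.7% of the class's UMIs at a share of 1.79%, and without it the sum was 4.74%, still below that of the LTS library. The LTS cell with most UMIs held 10.5% of them, and without it the share is 6.42%. The transcript of transthyretin, Ttr, took up 4.59% and 16.3% of the class's UMIs, and leaving it out of the total raised the member share to 3.59% and 7.22%.

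Other measures also set the class apart. Its median depth was 2045 and 4377 UMIs, against 20132 and 40555.5 in tumour-like cells. The tumour list summed to 6471 and 2650 CPM in the class, against 8730 and 8688 in tumour-like cells. Of that list, S100a6 alone was at 6226 CPM in tumour-like cells and at 1669 CPM in host cells. The sum in tumour-like cells thus rests largely on this gene, and whether host cells express it themselves was not tested. At matched depth in the LTS library, 25 choroid plexus-like cells of 2000 to 5000 UMIs had a share of 7.44% and 81 tumour-like cells 1.72%. Free RNA of the class was estimated from the tumour, T cell and B cell lists, counting all their UMIs as free. With free RNA taken off, the summed ratio over tumour-like cells was larger, as given in the closing section. The part of free tumour RNA in the class was not tested in any other way.

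Isoforms of complex IV with restricted expression separated the classes most sharply. Cox8b, the heart and muscle form of subunit 8, whose ubiquitous form is Cox8a, was at 610 CPM in LTS choroid plexus-like cells (258 UMIs) and at 74.6 CPM in control ones. In tumour-like cells it was at 0.0903 and 0.187 CPM, and no UMI of it occurred in the 1152 and 871 microglia-like cells. Cox8b was seen in 47 of 68 LTS choroid plexus-like cells (69.1%), in 4 of 12 control ones and in 20 of 2592 LTS tumour-like cells (0.772%). After each cell was thinned to 1000 UMIs, 47.1% (34.8 to 59.6) of the LTS choroid plexus-like cells kept a UMI and none of the LTS tumour-like cells did, which allows a share of up to 0.142%. Cox8a was abundant everywhere and also higher in the class, at 1789 and 3350 CPM against 773 and 851 in tumour-like cells.

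Cox6b2, known as the testis form of subunit 6b, was also highest in choroid plexus-like cells. It was at 104 and 317 CPM in choroid plexus-like cells, in 47 of 68 LTS cells, and at 0.0271 and 0.122 CPM in tumour-like cells. Monocyte-like cells held it at 13.9 and 18.4 CPM, in 18 of 417 and 20 of 226 cells. Its ubiquitous counterpart Cox6b1 was at 626 and 931 CPM in choroid plexus-like cells and at 321 and 337 in tumour-like cells. Cox7a1, the heart and muscle form of subunit 7a, was at 14.9 and 44.9 CPM in choroid plexus-like cells (16 of 68 LTS cells), with the liver form Cox7a2 at 447 and 1111 CPM. Both Cox8b and Cox6b2 lie on chromosome 7, as do 11 members in all.

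Cox6a2, the heart and muscle form of subunit 6a, was not highest in choroid plexus-like cells. It was at 32.5 and 40.5 CPM in microglia-like cells, in 129 of 1152 and 155 of 871 cells, and at 2.08 and 2.23 CPM in tumour-like cells. After thinning to 1000 UMIs, 2.95% and 3.67% of microglia-like cells kept a UMI, against 0.304% and 0.347% of tumour-like cells. An unnamed cluster led by Rnase6 and class II genes had it in 14 of 57 and 10 of 39 cells (24.6% and 25.6%). These are larger shares of cells than in the microglia-like class. The plasmacytoid dendritic list matched that cluster best, with 4 of 7 markers found. No choroid plexus-like cell had Cox6a2: 0 of 68 LTS cells, and 0 of 12 control cells. The remaining restricted forms were scarce, with Cox4i2 at most 2.32 CPM and Ndufa4l2 at most 6.97 CPM, the latter in LTS endothelial-like cells where 1 cell gave 91.7% of its UMIs.

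**Figure D3:**
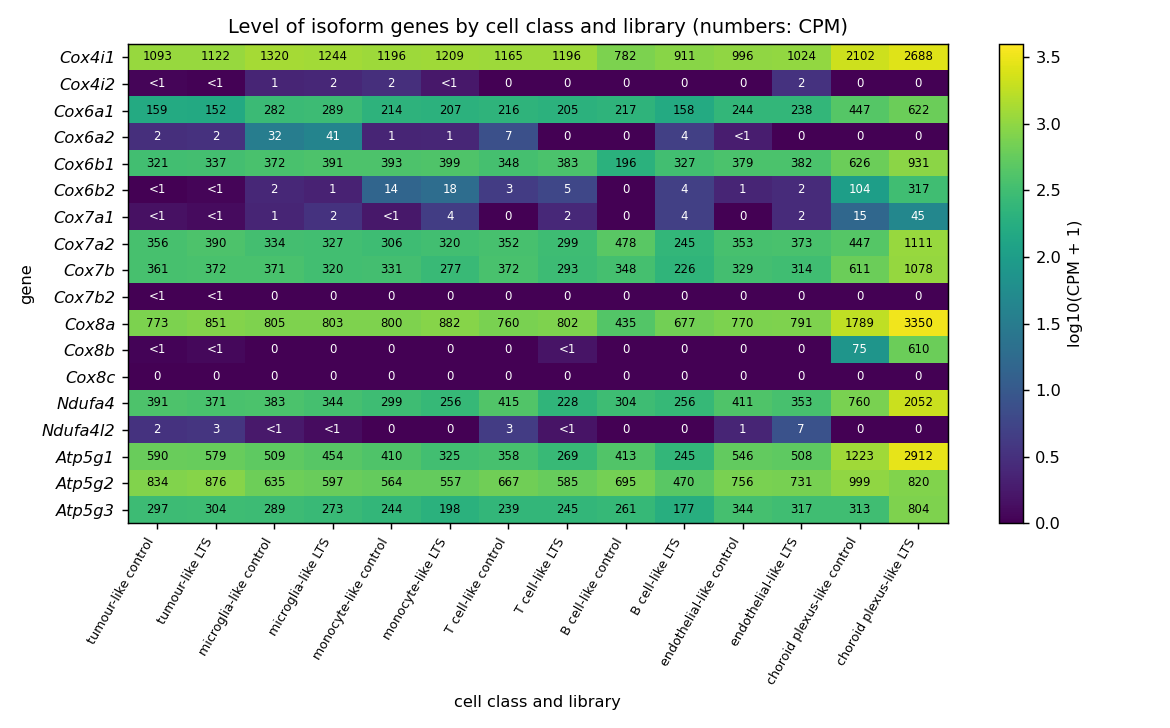
CPM (numbers and colour, on a log10(CPM + 1) scale) of the isoform groups in 7 cell classes of the control and the LTS library. Cox8b, Cox6b2 and Cox7a1 reach 610, 317 and 44.9 CPM in LTS choroid plexus-like cells, and Cox6a2 reaches 40.5 CPM in LTS microglia-like cells.

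Promoters are shown for the genes that parted most, each as the 80 bases before the RefSeq start on GRCm38.p6, on the gene's own strand. Cox8a and Cox8b are the ubiquitous and the restricted form of one subunit, Cox6b2 is the other restricted form seen in choroid plexus-like cells, and Ndufa11 is the ubiquitous gene of the class with the largest difference from the mean of the other classes. Cox8a lies at chr19:7217617-7217696 (minus strand), Cox8b at chr7:140900447-140900526 (minus), Cox6b2 at chr7:4753095-4753174 (minus) and Ndufa11 at chr17:56717682-56717761 (plus). Capitals mark a nuclear respiratory factor 1 motif, matched on both strands with 1 base of offset.
Cox8a: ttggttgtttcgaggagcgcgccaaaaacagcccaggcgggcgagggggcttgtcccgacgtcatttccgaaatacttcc
Cox8b: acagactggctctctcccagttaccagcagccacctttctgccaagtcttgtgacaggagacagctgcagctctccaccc
Cox6b2: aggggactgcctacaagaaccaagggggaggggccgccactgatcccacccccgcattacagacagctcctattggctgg
Ndufa11: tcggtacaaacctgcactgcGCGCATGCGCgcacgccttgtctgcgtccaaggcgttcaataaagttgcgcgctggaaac

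The promoter of Cox8b held fewer CG dinucleotides than the others listed here, counted over a longer stretch than the printed one. Over 300 bases (250 before to 50 after the start), Cox8b has 2 CG dinucleotides, Cox8a 19, Cox6b2 10, Cox7a1 7, Cox7a2 20 and Ndufa11 25. The median was 20 over the 77 members with a promoter entry (quartiles 15 and 25) and 7 over all 27025 promoters, and Cox8b was the only member with 2 or fewer. Motifs were searched on both strands, with overlaps between motifs allowed. The nuclear respiratory factor 1 motif CGCNTGCGC was in 23 of 77 members (29.9%) and 6.47% of all promoters, and the ETS motif CCGGAAG in 19 (24.7%) and 9.12%. The YY1 motif AAGATGGCG was in 6 (7.79%) and 1.49%, the oestrogen-related receptor motif TCAAGGTCA in 2 (2.60%) and 0.407%, and the TATA motif TATAAA in 8 (10.4%) and 14.2%. Cox8a holds an ETS motif across its start and Cox8b a TATAAA just after it, both outside the printed stretch. The nuclear respiratory factor 1, ETS and YY1 motifs hold a CG themselves, and promoters were not matched for CG content when shares were compared. A match of letters shows no binding.

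Microglia-like cells fell into 3 clusters with different member shares. Cluster 0 (756 control and 408 LTS cells) was at 2.04% and 1.99%. Cluster 7 (390 and 240 cells) was at 2.87% in both libraries, and cluster 1 (6 and 223 cells) was at 1.35% and 1.19%. Cluster 1 came almost wholly from the LTS library, so the cluster and the library cannot be told apart. It carried more of the homeostatic receptor P2ry12 (1518 against 292 CPM in LTS cluster 0) and of Tmem119 (1269 against 353 CPM).

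In the LTS library, 52 of 83 members were lower in cluster 1 than in cluster 0 and 1 was higher, beside 15% and 27.4% of all genes. The median log2 ratio was -0.72 over the members and 0.16 over all genes, and the summed share was 1.67-fold lower (1.63 to 1.71). Lower members numbered 24 of 36 in complex I, 1 of 4 in complex II, 4 of 8 in complex III, 11 of 12 in complex IV and 12 of 15 in complex V, and 0 of 6 among assembly factors. Ndufs3, a core subunit of complex I, was at 44.4 CPM against 134 CPM in cluster 0 (3.01-fold lower, 2.10 to 4.47). Cox5b, which binds zinc in complex IV, was at 137 against 363 CPM (2.64-fold lower, 2.15 to 3.27). Atp5g1 was at 195 against 468 CPM (2.41-fold lower, 2.02 to 2.88).

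Some members were level between those clusters. Sdha, the flavoprotein of complex II, was at 84.5 against 85.2 CPM, Uqcrh, the hinge protein of complex III, at 408 against 389, and Cox7a2l at 311 against 288. The higher member was the assembly factor Ndufaf7, at 31.5 against 15.2 CPM on 22 UMIs. It passed the minimum of 20 CPM only through cluster 1. Mitochondrially encoded genes had a median log2 ratio of -0.17 with 0 of 13 called, mitochondrial ribosome genes -0.59 (36 of 72 lower), glycolysis genes -0.56 (6 of 15 lower) and ribosomal protein genes -0.40 (23 of 94 lower). Dissociation-stress genes moved the other way, with a median of 1.38 and 11 of 18 higher. Among LTS cells of 2000 to 5000 UMIs, the share was 1.18% in 183 cells of cluster 1 and 1.63% in 46 cells of cluster 0, a log2 ratio of -0.47, so the difference was smaller at matched depth. The part of depth and stress in it was not tested.

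Cluster 7 lay on the other side of cluster 0. Its summed share was 1.41-fold that of cluster 0 in the control library (1.38 to 1.43) and 1.44-fold in the LTS library (1.42 to 1.46). There 23 of 83 control and 30 of 82 LTS members were higher, beside 7.09% and 6.03% of all genes, and 0 and 1 were lower, beside 29.2% and 30.9%. Members of complexes IV and V had medians of 0.54 and 0.53 in the control and 0.61 and 0.50 in the LTS library, while complex II had medians of 0.03 and -0.07. Its cells were shallow, with medians of 1485.5 and 1997.5 UMIs against 5588.5 and 10867.5 in cluster 0, dissociation-stress genes had medians of -2.34 and -2.74, and ribosomal protein genes 0.53 and 0.50. At 2000 to 5000 UMIs the control share was 2.81% in cluster 7 and 1.86% in cluster 0. Whether RNA quality has a part in this was not tested.

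Tumour-like and microglia-like cells differed little in the sum and in few members. The summed ratio of tumour-like over microglia-like cells was 0.987 (0.981 to 0.993) in the control and 1.06 (1.06 to 1.07) in the LTS library. The microglia-like class pools clusters of different shares, in proportions that differ between the libraries. Compared with cluster 0 alone, the tumour-like share was the higher in both libraries. Higher in tumour-like cells were 1 of 83 members in the control and 7 of 82 in the LTS library, beside 37.0% and 39.2% of all genes; lower were 9 and 9, beside 20.6% and 23.3%. In both libraries the complex I assembly factor Ndufaf4 was higher, at 64.7 and 64.1 CPM against 33.0 and 32.2. Lower in both were Cox6a1, Cox6a2, Ndufa3, Ndufa9, Ndufaf3, Ndufs3, Ndufv3 and Sdhb. Ndufv3 was at 60.4 and 55.5 CPM against 163 and 176 in microglia-like cells, and Sdhb, the iron-sulfur subunit of complex II, at 83.5 and 78.5 against 135 and 136. Complex III had the highest medians of any complex, 0.23 and 0.31, beside 0.33 and 0.34 for all genes and 0.70 and 0.71 for glycolysis genes.

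Against monocyte-like cells, 6 of 81 members were higher in tumour-like cells in the control and 14 of 81 in the LTS library, beside 41.9% and 45.5% of all genes; lower were 7 and 7, beside 21.4% and 23.5%. Those higher in both libraries were Atp5a1, Atp5j, Ndufa8, Ndufab1, Ndufaf2 and Ndufaf4, and those lower in both Atp5e, Ndufa3, Ndufaf3, Ndufv3 and Sdhb. Ndufa8 was at 268 and 264 CPM against 146 and 123 in monocyte-like cells. Sdhb was at 171 and 153 CPM in monocyte-like cells.

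Classes differed in how many members departed from the mean of the other 6 named classes, pooled over libraries. In tumour-like cells 1 of 90 members was at least 1.5-fold higher and 14 lower, beside 30.6% and 21% of all genes. Ndufaf4 (log2 difference 0.98), Atp5a1 (0.52) and Ndufa8 (0.47) led, and Cox6b2 (-1.70), Ndufv3 (-1.44) and Ndufa3 (-1.25) came last. Endothelial-like cells also had Ndufaf4 (0.81) and Ndufa8 (0.49) at the top and Ndufa13 (-0.68) low, with 1 higher and 6 lower (19.6% and 13.5%). Microglia-like cells were led by Sdhb (0.48), Ndufa9 (0.46) and Ndufs3 (0.43), with Uqcrh low (-0.75), and had 1 higher and 4 lower (17.1% and 17.5%).

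Lymphoid and monocyte-like cells showed other orders. Monocyte-like cells were led by Sdhb (0.77), with 2 higher and 7 lower (16.9% and 22.2% of all genes). T cell-like cells were led by Uqcrh (0.43), Cox7a2l (0.41) and Cox5a (0.29), a nuclear subunit of complex IV, and Atp5g1 (-1.04) and Ndufa4 (-0.79) were low, with 1 higher and 12 lower (14.7% and 18.8%). In B cell-like cells 48 of 90 members were lower and 3 higher, beside 32.5% and 15.6% of all genes, with Ndufaf4 (-1.64), Ndufc2 (-1.54) and Ndufb2 (-1.26) lowest. Ribosomal protein genes took 30.0% and 32.1% of UMIs in B cell-like cells, against 21.7% and 23.2% in tumour-like cells. Each mean includes choroid plexus-like cells, in which most members were higher.

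Tumour-like clusters were close to each other in the sum. The 9 clusters ran from 2.05% in cluster 5, led by Dmp1 and Postn, to 2.22% (control) and 2.21% (LTS) in cluster 13, led by Lgals7, a 1.09-fold and 1.08-fold range. Clusters 4 and 5, with 9 and 10 of 20 cell-cycle genes at least 1.5-fold higher, were at 2.11% and 2.05% in the control library. The interquartile range of single cells was wider than the range between clusters in each of the 9, from 1.90% to 2.17% in control cluster 5 and from 2.08% to 2.37% in control cluster 13.

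**Figure D4:**
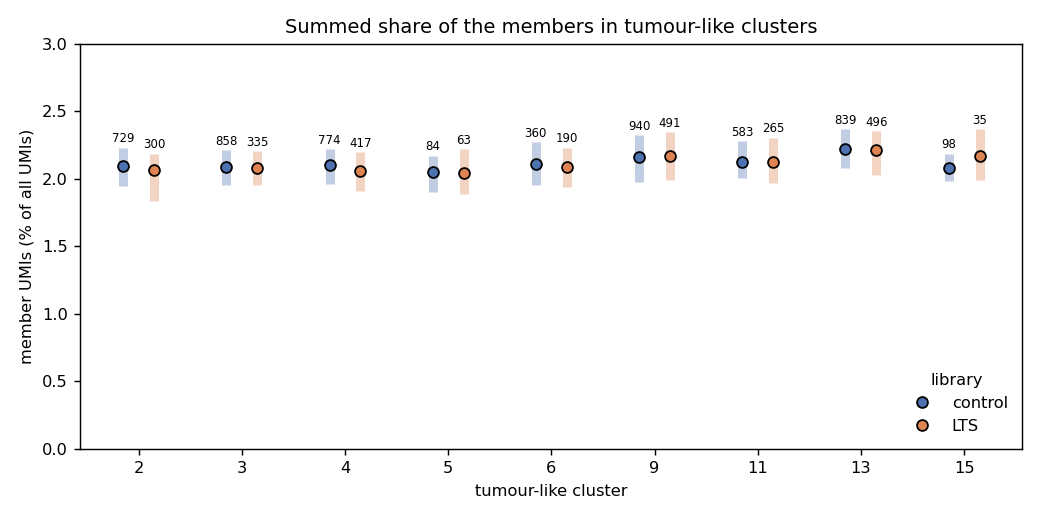
Summed share of the members (% of all UMIs, dots) in the 9 tumour-like clusters of the control and the LTS library; bars span the interquartile range over cells and numbers give the cells. The clusters lie between 2.05% and 2.22%.

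Single members had a smaller median spread over these clusters than all genes did. The median log2 spread from the lowest to the highest cluster was 0.31 (control) and 0.39 (LTS) over the members and 0.62 and 0.67 over all genes. Members with at least a 1.5-fold spread numbered 8 of 82 and 16 of 81, beside 54.0% and 59.5% of all genes. Counting error adds to such spreads, most in genes of low count, and members were not compared with genes of like level. Among members reaching 50 CPM in a cluster, Ndufaf4 spread most, from 41.5 CPM in cluster 5 to 98.6 CPM in cluster 15 (control). In the LTS library it ran from 29.4 to 94.2 CPM in the same clusters. Cluster 15, led by Mmp3, Il11 and Areg, held only 98 control and 35 LTS cells. Ndufv3 ran from 44.3 CPM in cluster 3 to 91.0 CPM in cluster 9 (control) and from 37.6 to 89.6 CPM (LTS), and Sdhaf4, which assists Sdha assembly, from 36.8 to 72.9 CPM and from 38.2 to 78.6 CPM between the same clusters. Uqcrq ran from 413 CPM in cluster 5 to 718 in cluster 3 (control) and from 422 in cluster 5 to 850 in cluster 15 (LTS).

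Of the 5 classes with at least 50 cells in each library, 4 had no member called between the libraries. The exception was T cell-like cells, which also had the largest shares of calls over all genes. In tumour-like cells the median log2 ratio of LTS over control was -0.02 over 80 members and -0.01 over all genes, and 0 members were called, beside 0.0156% of all genes higher and 0.405% lower. By complex the medians were -0.04 (I), -0.04 (II), 0.01 (III), 0.04 (IV) and -0.04 (V). The largest differences were Atp5k, a dimer-forming subunit of complex V, at 185 and 133 CPM (log2 -0.45), Ndufa6 at 157 and 121 (-0.36) and Ndufa3 at 64.4 and 51.6 (-0.29), and on the other side Sdhd, a membrane anchor of complex II, at 84.5 and 104 (0.29), Cox8a (0.14) and Cox7a2 (0.13). In free RNA, taken from barcodes of 1 to 100 UMIs, the ratios of Atp5k (-0.34), Ndufa6 (-0.39), Ndufa3 (-0.06) and Sdhd (0.24) had the sign seen in the cells, and those of Cox8a (-0.01) and Cox7a2 (-0.08) had the other sign. Free RNA was then taken off at a level estimated from marker genes of other classes, which the cells may also express themselves. The cells' ratios became -0.13 for Atp5k, -0.24 for Ndufa6, 0.03 for Ndufa3, 0.25 for Sdhd, 0.25 for Cox8a and 0.43 for Cox7a2. In the 8 tumour-like clusters with 50 cells per library, the medians lay between -0.06 and -0.01.

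**Figure D5:**
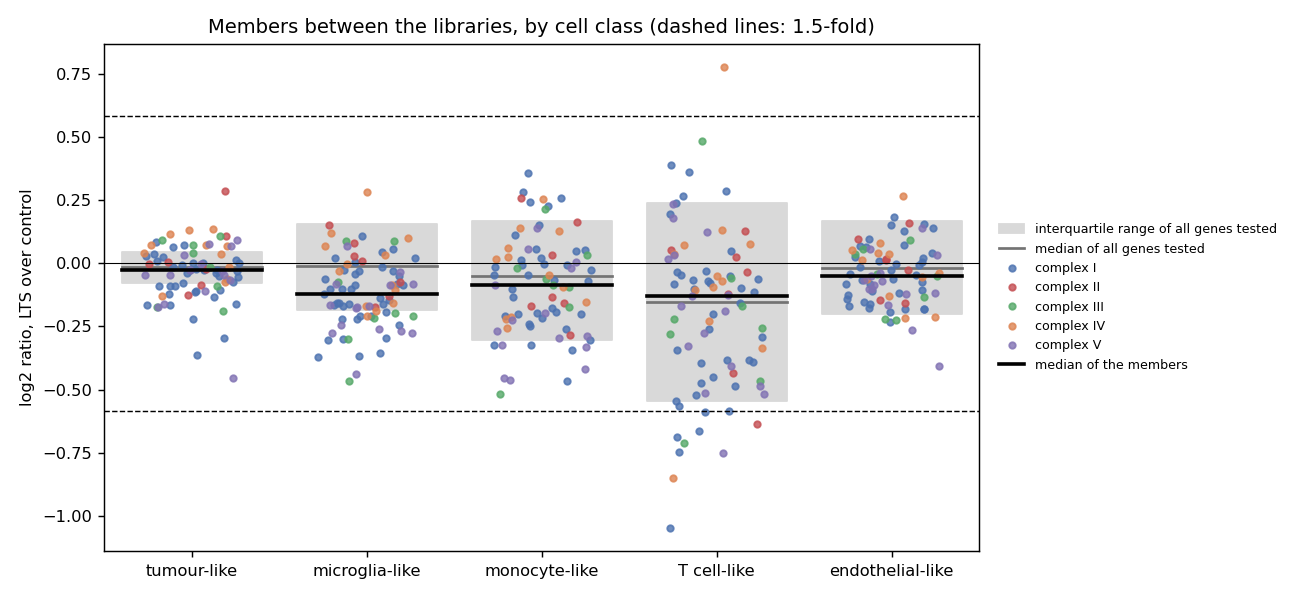
Log2 ratio of LTS over control for each member (dots, coloured by complex) in 5 cell classes; the grey band is the interquartile range of all genes and dashed lines mark 1.5-fold. Members centre on -0.02 in tumour-like cells and lie between -0.45 and 0.29 among those named there. In T cell-like cells 10 members pass the call rule, beside 14.6% of all genes lower and 4.74% higher.

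Microglia-like, monocyte-like and endothelial-like cells had 0 members called as well. Their member medians were -0.12 (83 members), -0.09 (80) and -0.05 (81), beside -0.01, -0.05 and -0.02 for all genes. All-gene calls were 1.18% higher and 2.83% lower in microglia-like, 2.34% and 8.90% in monocyte-like and 2.42% and 3.34% in endothelial-like cells. In microglia-like cells Uqcrb, a small subunit of complex III, was at 283 and 203 CPM (-0.47) and Ndufv1, a core subunit of complex I, at 71.9 and 54.7 (-0.37). The member median was -0.05 within cluster 0, -0.04 within cluster 7 and -0.06 over the class without cluster 1, a choice made after seeing the data. Monocyte-like cells had Uqcrb at 294 and 204 CPM (-0.52), Ndufs4 at 104 and 73.6 (-0.47) and Atp5b, the catalytic beta subunit, at 583 and 421 (-0.46), and Ndufs3 at 80.1 and 104 (0.36). Endothelial-like cells had Atp5b at 663 and 498 CPM (-0.41) and Cox7a2l at 293 and 354 (0.27).

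T cell-like cells (97 control and 480 LTS) were the class with calls: 9 of 83 members were lower and 1 higher in the LTS library, beside 14.6% and 4.74% of all genes. Neither share of the members exceeded that of all genes, and the members' median was -0.13, against -0.15 for all genes. Cox7a2l rose from 265 to 459 CPM on 80 and 851 UMIs (1.73-fold, 1.37 to 2.20). Ndufa4 fell from 415 to 228 CPM (log2 -0.85), Atp5b from 694 to 410 (-0.75), Ndufs8, an iron-sulfur subunit of complex I, from 123 to 71.2 (-0.75), Uqcr10 from 435 to 264 (-0.71) and Sdhb from 139 to 87.9 (-0.64). The other 4 that fell were Ndufb6, Ndufb2, Ndufab1 and the assembly factor Ndufaf1, the last on 9 and 22 UMIs. Uqcrh was at 611 and 856 CPM (0.48), without a call.

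Other contents of the T cell-like class also differed between the libraries. Summed T cell markers were at 2074 and 4271 CPM (control and LTS), with 9 of 9 higher in the LTS library and none at 0. Natural killer markers summed to 1802 and 2526 CPM, but only 3 of 7 were higher in the LTS library and 1 was at 0 in each. Microglia markers summed to 640 and 343 CPM (2 of 11 higher, 1 at 0 in the control library) and the tumour list to 4908 and 3441 CPM (1 of 12 higher). Estimated free RNA was 50.4% and 33.6% of the class's UMIs. That estimate counts every UMI of the tumour, B cell and choroid plexus lists as free RNA. The highest gene of the tumour list, S100a6, was at 6226 CPM in tumour-like cells and at 1669 CPM in host cells. Restricted to cells with a Cd3 UMI and no C1q UMI, a choice made after seeing the data (48 control and 318 LTS cells), 4 of 84 members were lower and 2 higher, beside 10.6% and 2.69% of all genes. The part of these contents in the members' values was not tested.

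Over all 5 classes, 28 of 79 members tested in each were below 0 in every class, beside 22.2% of all genes, and 7 were above 0 in every class, beside 5.89%. The 7 were Ndufb3, Cox6b1, Uqcrh, Sdhaf4, Atp5e, Sdhd and Cox7a2l. Atp5k lay furthest below, between -0.52 and -0.26. The classes share their 2 libraries and their free RNA, so they are not independent. Of the mitochondrially encoded partners, mt-Atp8, which is transcribed with the complex V subunit mt-Atp6, was called lower in each of the 5 classes, falling from 135 to 44.1 CPM in tumour-like cells (log2 -1.51). The medians of the 13 mitochondrially encoded genes were -0.13 (tumour-like), -0.15 (microglia-like), -0.13 (monocyte-like), -0.18 (T cell-like) and -0.15 (endothelial-like).

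The member share differed between depths within a class, in no single direction. In the LTS library it was 1.65% in 51 tumour-like cells of 1000 to 2000 UMIs 2.17% in 1467 cells of 20000 to 50000 UMIs and 2.06% in 784 deeper ones. In control tumour-like cells it was 1.76% in 72 cells of 1000 to 2000 UMIs 2.19% in 2123 cells of 10000 to 20000 UMIs and 2.003% in 53 cells over 50000 UMIs. In microglia-like cells it was 2.85% (control) and 2.39% (LTS) at 1000 to 2000 UMIs and 2.05% and 1.74% at 2000 to 5000 UMIs. An unnamed cluster of shallow barcodes with few mitochondrially encoded UMIs (1.65% and 1.13%), led by AY036118 and Gm42418, had member shares of 3.0% over 899 control and 2.78% over 289 LTS barcodes.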

How the data were processed

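The authors deposited raw UMI counts of each gene in each barcode, without normalization. Per the file headers, Cell Ranger 4 made the matrices. The submitters' processing notes name mm10; the annotation release was not given in the sources used here. Members and gene lists were chosen with earlier results of these data known. Cells were barcodes with at least 1000 UMIs, 300 genes and at most 15% mitochondrially encoded UMIs, which removed 817 control and 604 LTS barcodes for mitochondrial content. Both libraries were clustered together on 2000 variable genes without the members (30 principal components, 15 neighbours, Leiden resolution 1; python 3.11.15 with scanpy 1.11.5, leidenalg 0.10.2, anndata 0.12.19 and numpy 2.4.6, scikit-learn 1.9.0, pandas 2.3.3, scipy 1.17.1 and, for figures, matplotlib 3.10.9).

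A cluster was named if at least 3 markers of a class were found in 10% of its cells at 2 times the level elsewhere. No name was given where the top 10 genes held more markers of a different class, where the median doublet score exceeded 0.2, or where depth was below 0.333 of the library's median and no own marker was on top. A host name also needed Y-linked transcripts. Scrublet marked 1 control cell (0.0120%) and 85 LTS cells (1.76%); the control share was too low for these calls to be relied on, and no cell was removed. The cell-cycle rule for clusters was set after seeing the data.

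Counts were summed per class and library, scaled to CPM and set against each other as log2 ratios with a pseudocount of 5 CPM, which understates ratios of low genes, among genes with at least 20 CPM in either. Folds printed with intervals are ratios of CPM without a pseudocount. Intervals are exact (Clopper-Pearson). The code was tested on simulated counts. Named by rule were, per class, the 3 highest and the 3 lowest members by ratio between libraries or difference from other classes (at least 50 CPM and a UMI in 10% of cells), the 3 with the largest spread over tumour-like clusters, the highest and lowest per complex, the Sdh subunits and the isoform pairs. Other members named in the comparisons of choroid plexus-like cells and of microglia clusters were chosen after their values were seen. Positions came from GENCODE M21. The nuclear respiratory factor 1 motif was shortened by 1 base after shares for the longer form had been seen. Of the members, 5 share same-strand exon bases with another gene model (Atp5g2, Atp5o, Ndufb2, Ndufb8 and Ndufb9), and how such reads were counted was not stated.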

Additional observations from a re-analysis of the deposited data

How the results depend on the processing

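Each group holds 1 library, so no replicate could be left out. No paired analysis was possible because each group holds 1 library. Of 99 alternative values of the 9 summary results, 80 stayed within counting error, 17 moved beyond it and 2 reversed. A change of sign counts as a reversal only where the main value lies beyond counting error, which the tumour-like median does not. For medians between libraries, counting error was taken as the median half-width of single members' intervals. That is wider than the error of a median over the members, so these labels are lenient. For the tumour-like LTS over control median (-0.02), taking off free RNA gave 0.13, beside -0.14 for all genes. Log2 sums of tumour-like over microglia-like cells (control -0.02, LTS 0.09) became 0.0344 and 0.18 without mitochondrially encoded and ribosomal UMIs in the total. They became 0.0259 and 0.10 at 2000 or more UMIs, and -0.17 and 0.0597 without free RNA. The control value was -0.11 with cells weighing the same. The control direction thus depends on the total, on depth and on which microglia clusters are pooled. Choroid plexus-like over tumour-like cells (1.52) gave 1.34 without mitochondrially encoded and ribosomal UMIs, 1.73 with cells weighing the same and 1.73 at 2000 or more UMIs, 1.57 at 10% mitochondrially encoded UMIs or less, 1.87 without free RNA, 1.54 over structural subunits and 1.56 without Scrublet calls. Microglia cluster 1 over cluster 0 (-0.74), whose alternatives were all chosen after seeing the data, gave -0.84, -0.68, -0.47 and -1.02 without mitochondrially encoded and ribosomal UMIs, with equal cells, at 2000 to 5000 UMIs and without free RNA. Free RNA was estimated at 48.2% and 30.7% of tumour-like UMIs and 22.9% and 9.80% of microglia-like UMIs (control and LTS). The estimate counts every UMI of marker genes of other classes as free RNA. For tumour-like cells these genes include Fn1, Vcan and S100a4 of the monocyte list. Expression of such genes by the class itself would raise the estimate, and this was not tested. The causes were not tested. None of the 130 alternative values of the 10 single members called between libraries reversed in sign. In the 12 control choroid plexus-like and 24 control B cell-like cells, depth limits members of low level to a few UMIs.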
